A study of Mus musculus with 3 samples.

Results

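IgM plasmablasts that were not dividing were the non-switched antibody-secreting cells among splenic B cells of BXD2 mice, and 699 of 35102 cells (1.99%) belonged to them. They were chosen by RNA. A cell counted as a plasmablast when it held at least 5 UMIs (unique molecular identifiers, each a counted RNA molecule) of Edem1, which helps to clear misfolded glycoproteins from the endoplasmic reticulum (ER), and at least 20 UMIs of Mzb1, a chaperone of immunoglobulin assembly. It counted as not dividing with fewer than 3 UMIs of the proliferation genes Mki67 and Top2a together, and as IgM when Ighm gave at least 80% of its UMIs of the constant genes Ighm, Ighg1, Ighg2b, Ighg2c, Ighg3 and Igha. All mice were female wild-type BXD2 mice, inbred animals used as a model of lupus. In the R848 group, mice received R848, a small-molecule agonist of Toll-like receptor 7 (TLR7). The dose was 40 µg for every 20 g of mouse, injected 2 hours after 25 µg of an anti-IL-4 antibody that served as the control injection. In the IL-4+R848 group, the first injection held 5 µg of IL-4 complexed with 25 µg of the same antibody, which prolongs its action. Both injections were repeated 2 days later, and spleens were taken after 2 further days. The design names 3 mice per treatment. Each of 3 single-cell 5′ libraries (sets 1 to 3) mixed B cells of both treatments, which were separated here by their antibody hashtags.

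Plasmablasts are the early, short-lived stage of antibody-secreting cells. Blimp-1, encoded by Prdm1, switches off the B cell program, Xbp1 expands the ER, and the J chain joins IgM monomers into polymers. Cells that secrete IgM without class switching arise quickly outside germinal centers, and marginal zone and B-1 cells are well-known sources of them in the spleen. TLR7 agonists drive this differentiation, while IL-4 acts through STAT6 on resting B cells and raises CD23 there.

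The 6 sums of cells, 1 for each set and treatment, held 218, 130 and 142 members after R848 and 94, 53 and 62 after IL-4+R848 in sets 1, 2 and 3. No barcode of a member was shared between libraries. Pairs of sets shared 230, 289 and 219 of all barcodes before filters, and 172, 209 and 168 among the cells used. A member held a median of 14869 UMIs, of which a median of 38.0% came from immunoglobulin genes. Of its constant-region UMIs a median of 99.6% was Ighm. The 3 libraries held 96866964 to 107244246 gene UMIs, and 7.26% to 8.86% of their barcodes carried both hashtags and were left out as doublets of the 2 treatments. Doublets within a treatment were not called. Among non-dividing plasmablast barcodes, 87.6% to 89.7% of those with IgM could be assigned to a treatment, against 76.1% to 83.9% of the switched ones, whose own hashtag had a median of 309.5 to 1018 UMIs per cell against 1177 to 2747.5 on IgM plasmablasts. Whether each set held 1 mouse per treatment is not stated in the labels, so the spread between sets may be technical or biological.

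The plasmablast label is described here with genes that the thresholds did not use. Jchain, Prdm1 and Amigo2 are listed markers of this population, so their levels are a description and not an independent check. Jchain, which encodes the J chain, gave 16611 to 21594 CPM (UMI counts scaled to a common depth, in this paragraph before TMM scaling) in the 6 sums, and at least 95.2% of members in each sum had a UMI of it. IgD cells served as the resting B cell comparison (6656 cells). They held at least 3 UMIs of Ighd, under 5 of Edem1, under 20 of Mzb1 and under 3 of Mki67 and Top2a together. These limits left out cells rich in Edem1 or Mzb1, so low levels of plasma cell genes in IgD cells partly describe that choice. Jchain gave 10.8 to 111.5 CPM in IgD cells. Prdm1 gave 73.9 to 107 CPM in IgM plasmablasts and at most 0.931 CPM in IgD cells. Amigo2, which encodes an adhesion molecule, gave 83.1 to 132 CPM, against 4.9 to 10.0 CPM in IgD cells. The rule genes themselves gave 1065 to 1350 CPM for Edem1, 7632 to 9145 CPM for Mzb1 and 16461 to 19613 CPM for Ighm. The summed level of 6 T cell markers was 1.0 to 17.5 CPM with 2 to 5 of the 6 at 0, and 5 NK cell markers gave 0 to 2.5 CPM with 4 or 5 at 0. Markers of neutrophils, platelets and red cells reached at most 1.2 CPM in any sum, and the 4 basophil and mast cell markers were at 0 in every sum. Those of monocytes and macrophages gave 0 to 2.5 CPM. Germinal center B cell markers gave 9.3 to 35.6 CPM, against 40.4 to 56.4 CPM in IgD cells. Their highest sum was that of set 1 after IL-4+R848, against 11.8 CPM in set 1 after R848. Conventional dendritic cell markers summed to 558 to 650 CPM (228 to 329 CPM in IgD cells), of which Cst3, a widely expressed protease inhibitor, gave 555 to 646 CPM. Of the other 4 dendritic markers Xcr1 and Clec9a were at 0 in 5 of 6 sums. Plasmacytoid dendritic cell markers summed to 151 to 210 CPM (42.4 to 52.3 CPM in IgD cells), with Bst2 at 140 to 198 CPM, Ccr9 at 8.0 to 19.8 CPM and the defining marker Siglech at 0 in all 6 sums. Transitional B cell markers summed to 93.6 to 221 CPM (203 to 359 CPM in IgD cells), of which Vpreb3 gave 90.5 to 219 CPM, with Rag1 and Rag2 at 0 in all 6 sums. Follicular B cell markers gave 42.9 to 92.8 CPM, against 1292 to 1707 CPM in IgD cells. Marginal zone B cell markers were also below the IgD cells, with sums of 82.5 to 105.9 CPM against 182 to 291 CPM. The higher marginal zone RNA described below is relative to switched plasma cells. The order of the sums against IgD cells does not hold for each gene. In the joint fit given later, after TMM scaling, Myof had a higher mean in IgM plasmablasts than in IgD cells after both treatments.

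The thresholds cut through a continuum. Members with 5 or 6 Edem1 UMIs (99 cells) had a median of 67 Mzb1 and 166 Ighm UMIs, and 34.3% of their UMIs were immunoglobulin. The 85 IgM cells just outside, with 3 or 4 Edem1 UMIs, had 59 Mzb1 and 115 Ighm UMIs and 31.6% immunoglobulin. Of the members, 389 had no UMI of Mki67 or Top2a and 310 had 1 or 2, and the 245 dividing IgM plasmablasts had 25.9% immunoglobulin UMIs against 38.0% in members. Only 36 non-dividing plasmablasts fell between the IgM and the switched class, with a median Ighm share of 32.6%.

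IgM plasmablasts made up a smaller share of all cells after IL-4 in every set. After R848 they were 3.05% of cells in set 1, 2.30% in set 2 and 1.89% in set 3 (95% Clopper-Pearson intervals 2.66 to 3.48%, 1.93 to 2.73% and 1.59 to 2.22%). After IL-4+R848 they were 1.83%, 1.16% and 1.22% (1.48 to 2.24%, 0.868 to 1.51% and 0.937 to 1.56%). The intervals cover counting error only. Every IL-4+R848 value lay below every R848 value. The means were 2.41% ± 0.590 and 1.40% ± 0.374 (SD, n = 3), a ratio of 0.582, with a two-sided exact permutation p of 0.10, the smallest that 3 against 3 can give. A smaller share of cells and a larger number of other cells cannot be told apart here, because the shares sum to a fixed total.

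**Figure D1:**
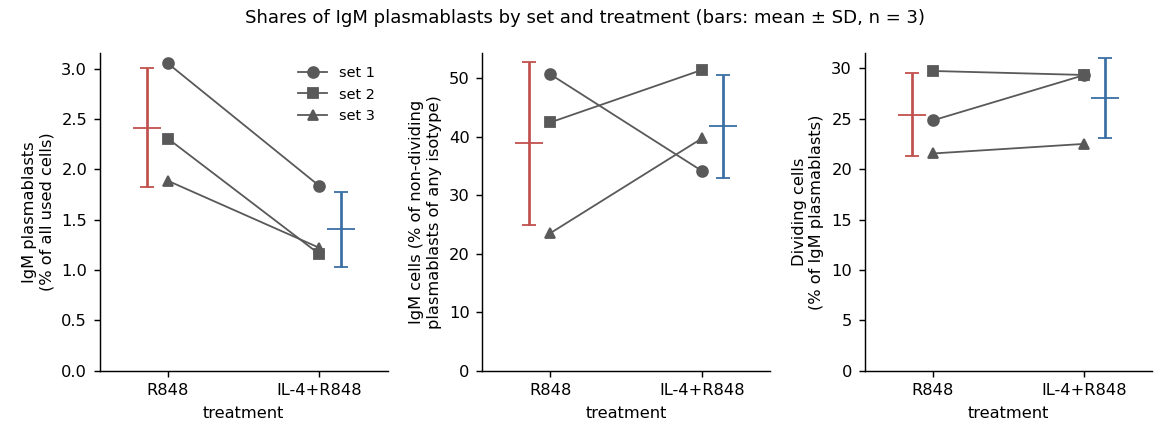
Shares of IgM plasmablasts in percent (y axes) after R848 and IL-4+R848 (x axis), with 1 line per set and the mean ± SD of 3 sets beside the points. In the left panel each line falls (3.05 to 1.83%, 2.30 to 1.16% and 1.89 to 1.22%), while the lines of the other panels run in different directions.

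The balance between IgM and switched cells showed no such order. IgM cells were 50.7%, 42.5% and 23.5% of non-dividing plasmablasts after R848 and 34.2%, 51.5% and 39.7% after IL-4+R848 in sets 1, 2 and 3. The groups overlapped (38.9% ± 13.9 against 41.8% ± 8.82, SD, n = 3; exact permutation p = 0.90), and set 1 moved opposite to sets 2 and 3. The dividing share of IgM plasmablasts was 24.8%, 29.7% and 21.5% after R848 and 29.3%, 29.3% and 22.5% after IL-4+R848 (25.4% ± 4.12 against 27.1% ± 3.94, n = 3; exact permutation p = 0.70). Shares of switched cells among all cells were 3.95% ± 1.78 and 2.08% ± 1.22 (exact permutation p = 0.30), lower after IL-4 in 2 of 3 sets.

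Against switched plasma cells, IgM plasmablasts held more RNA of B cell surface genes and marginal zone genes, and less of Slpi, Fut8, several ER degradation factors and respiratory chain genes. The comparison set the 699 IgM cells against 1138 non-dividing plasmablasts with Ighm at 20% or less, summed by set and treatment and paired within those sums. Of 7897 genes tested with edgeR's quasi-likelihood test, 804 were higher and 827 lower in IgM plasmablasts at a Benjamini-Hochberg adjusted p under 0.05 (20.7% of genes, 10.2% higher and 10.5% lower). Without immunoglobulin genes and the rule genes, 798 were higher and 784 lower, of which 212 and 118 differed at least 2-fold. The count was 669, 894 and 1011 without set 1, 2 and 3. Switched cells were deeper, with median UMIs of 18468.5 to 25901.5 per sum against 13014.5 to 16852, and 49.2% to 52.6% of their UMIs were immunoglobulin against 37.5% to 40.4%. Levels below are CPM after TMM scaling, given as the lowest, median and highest of the 6 sums a class. The part of depth in them was not tested beyond the fit without immunoglobulin genes. The sums of the classes did not overlap for 783 of the 7897 genes tested and for 58 of the 68 named genes. The named genes were selected for passing the test and for size, so a lack of overlap below is a description. Counts of lists below stand beside the 10.2% higher and 10.5% lower of all genes.

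**Figure D2:**
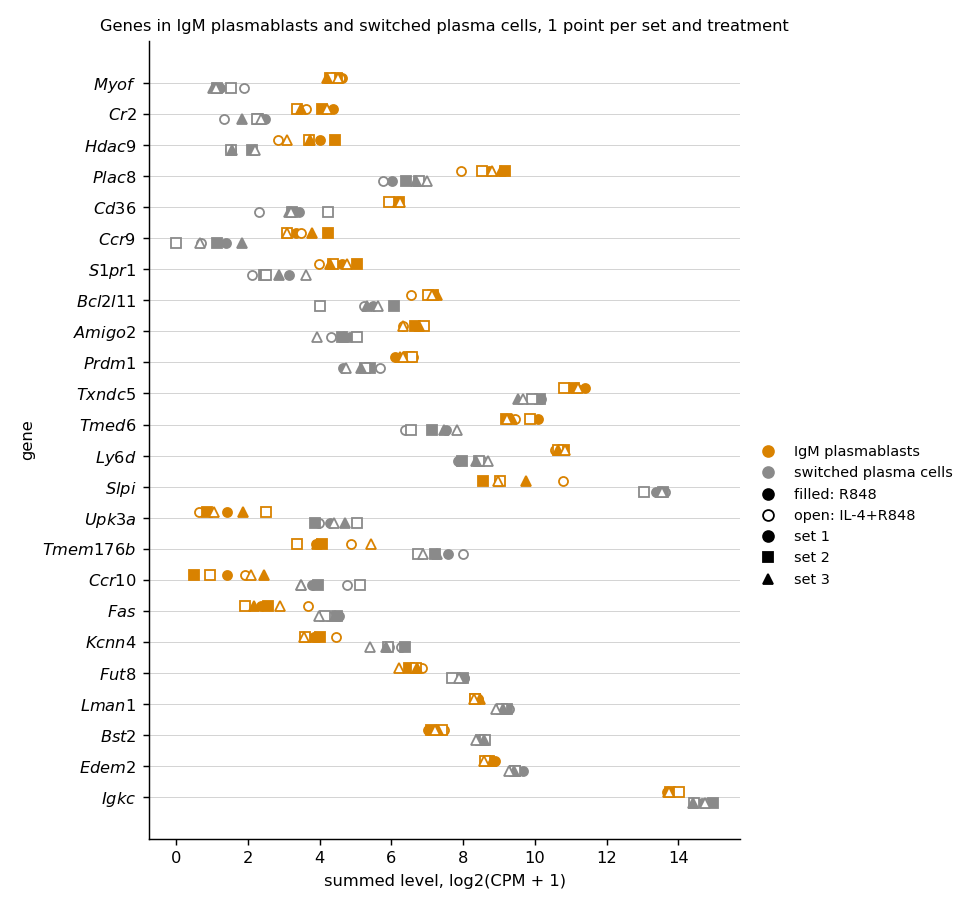
Levels of named genes as log2(CPM + 1) (x axis) in IgM plasmablasts and switched plasma cells, 1 point per set and treatment, drawn with the values of the paired comparison. From Myof to Ly6d the IgM points lie to the right of all switched points, and from Slpi to Igkc to the left; Slpi spans 373 to 1747 CPM in IgM and 8351 to 12690 CPM in switched sums.

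Genes of the marginal zone and B-1 list were higher in IgM plasmablasts, 11 of 15 tested against 1 lower, with a median log2 difference of 1.25 where the median of all genes was 0.02. Myof, a membrane repair protein, gave 17.3, 21.6 and 23.6 CPM in IgM plasmablasts and 1.0, 1.3 and 2.7 CPM in switched cells, 13.6-fold higher (log2 difference 3.77 ± 0.19 SE, adjusted p = 1.87e-05). Hdac9, a histone deacetylase, gave 6.2, 12.3 and 20.6 against 1.8, 1.9 and 3.6 CPM (log2 2.45 ± 0.23, adjusted p = 0.00033). Plac8 gave 245, 436 and 577 against 53.0, 93.2 and 128 CPM (log2 2.28 ± 0.17, adjusted p = 0.000114). None of these groups overlapped. Cr2, the complement receptor CD21 of marginal zone cells, gave 9.3, 13.5 and 19.7 against 1.5, 3.8 and 4.6 CPM (log2 2.07 ± 0.17, adjusted p = 0.000193), and it is also a member of the B cell list. The members of both lists were chosen with earlier results of these data known, so their direction is a description. With 1 set left out, 8 to 10 list members were higher.

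B cell genes were also higher. Of 22 tested B cell factors and coreceptors 11 were higher in IgM plasmablasts and none lower (median log2 difference 0.57). Cd79a, a signalling chain of the B cell receptor, gave 2807, 3069.5 and 3350 CPM against 1110, 1192 and 1333 CPM (log2 1.35 ± 0.12, adjusted p = 0.000231). The kinase gene Blk gave 35.1, 44.6 and 61.9 against 11.3, 17.6 and 27.2 CPM (log2 1.42 ± 0.18), and Ms4a1, which encodes CD20, 204, 226 and 251 against 92.0, 114 and 152 CPM (log2 0.93 ± 0.11). In all 3 genes the lowest IgM sum lay above the highest switched sum. MHC class II and costimulation genes differed less: H2-Ob (log2 0.44 ± 0.07) and H2-Eb1 (0.39 ± 0.12) were higher and the PD-L1 gene Cd274 (-0.54 ± 0.15) lower, of 12 tested. H2-Eb1 did not pass with any 1 set left out, Cd274 without set 1 or 2 and H2-Ob without set 1, which left 0 to 2 higher and 0 or 1 lower. H2-Eb1 and Cd274 also lost their calls with Edem1 of at least 8 and Mzb1 of at least 40. H2-Eb1 lost it without a filter on low counts, and Cd274 without the replicate block or when cells had no Mki67 or Top2a UMI. The edgeR adjusted p reached 0.243 for H2-Eb1, 0.20 for Cd274 and 0.0614 for H2-Ob. Ly6d, a B lineage surface protein, lay outside the lists and gave 1503, 1658 and 1840 against 229, 337 and 411 CPM (log2 2.41 ± 0.17, adjusted p = 8.96e-05).

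Prdm1, a marker of the population given here as a description, stood at 67.8, 83.7 and 95.6 CPM in IgM plasmablasts against 24.4, 36.1 and 50.9 CPM in switched cells. Of 16 plasma cell transcription factors and related genes 6 were higher and 1 lower, and without any 1 set 3 were higher. Ikzf3, the transcription factor Aiolos, gave 79.8, 87.5 and 110.5 against 42.4, 53.6 and 62.9 CPM (log2 0.81 ± 0.06). The gene that was lower was Cd28, a costimulatory receptor of long-lived plasma cells, with 6.5, 17.7 and 18.6 against 22.6, 34.5 and 39.7 CPM (log2 -1.03 ± 0.19, adjusted p = 0.00632; 0.0515 without set 3). The marker Amigo2, likewise a description, gave 79.1, 105 and 119.5 against 14.2, 24.3 and 31.9 CPM. No level of Amigo2, Prdm1, Ikzf3 or Cd28 overlapped between the classes.

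Single genes of the secretory machinery differed in both directions. Of 38 tested ER translocation and folding genes 3 were higher and 5 lower (1 or 2 and 2 to 7 with a set left out), with a median log2 difference of -0.08. These counts lie near the shares over all genes, 10.2% higher and 10.5% lower, and set the list apart in no way. Txndc5, a protein disulfide isomerase, stood out with 1810, 2278.5 and 2671 CPM in IgM plasmablasts against 741, 1053 and 1141 CPM (log2 1.204 ± 0.145, adjusted p = 0.000961). Creld2, an ER stress-induced disulfide isomerase, gave 767, 904 and 1151 against 1359, 1436.5 and 1871 CPM (log2 -0.71 ± 0.13, adjusted p = 0.00643; 0.0733 at most with a set left out), and Txndc11 was lower by a log2 of -0.66 ± 0.10. ER-associated degradation held 5 lower genes of 15 and none higher (median -0.34), led by Edem2 with 381.5, 426.5 and 476 against 625, 691 and 808 CPM (log2 -0.71 ± 0.10) and Ube2j1 with 124, 151 and 159 against 216, 238 and 253 CPM (log2 -0.71 ± 0.08). The 5 became 2, 3 and 4 without set 1, 2 and 3. Edem1, a relative of Edem2, was used by the rule and is not compared. Lman1, a cargo receptor from the ER to the Golgi, gave 318, 329 and 356 against 483, 566 and 618 CPM (log2 -0.76 ± 0.10, adjusted p = 0.0014). Tmed6, a p24 family member of ER to Golgi transport that lay outside the lists, went the other way with 586, 679 and 1080 against 81.6, 158 and 229 CPM (log2 2.39 ± 0.27).

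Glycan-processing genes were split. Of 18 tested 4 were higher and 2 lower in IgM plasmablasts. Fut8, which adds core fucose to N-glycans, gave 72.6, 103 and 114 against 207, 247 and 259 CPM (log2 -1.32 ± 0.10, adjusted p = 0.000133). B4galt1, a galactosyltransferase, gave 26.1, 42.6 and 49.7 against 16.8, 19.7 and 25.3 CPM (log2 1.06 ± 0.14), and Man2a1, a Golgi mannosidase, 41.9, 58.6 and 61.8 against 29.4, 32.8 and 35.6 CPM (log2 0.76 ± 0.08). The sialyltransferase gene St3gal6, which was in no list, gave 52.3, 61.1 and 95.6 against 5.4, 7.4 and 10.4 CPM (log2 3.08 ± 0.17, adjusted p = 3.22e-05). The classes did not overlap for any of these 4 genes. Among partners of the antibody itself, Igkc was lower in IgM plasmablasts (log2 -0.88 ± 0.14). It gave 13170, 13795 and 16540 CPM against 21860, 26525 and 32060 CPM in switched cells. Igkc did not pass without set 1 or when cells had no Mki67 or Top2a UMI. The marker Jchain, as a description, gave 15040, 17100 and 20550 against 24180, 26060 and 27760 CPM.

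Receptors that place cells in tissue divided into both directions, with 8 higher and 9 lower of 23 tested (3 and 4, 5 and 6, and 8 and 6 without set 1, 2 and 3). Ccr9, a receptor for the gut chemokine CCL25, gave 7.5, 9.7 and 17.8 CPM in IgM plasmablasts against 0, 0.91 and 2.6 CPM (log2 2.96 ± 0.30, adjusted p = 0.000448). S1pr1, the sphingosine phosphate receptor for exit from lymphoid tissue, gave 14.7, 21.8 and 32.2 against 3.4, 5.5 and 11.3 CPM (log2 1.85 ± 0.20, adjusted p = 0.000622). Ccr10, a receptor for mucosal chemokines, gave 0.41, 2.2 and 4.4 against 10.1, 13.6 and 33.8 CPM (log2 -2.84 ± 0.39, adjusted p = 0.0018). Survival genes were also uneven: the anti-apoptotic Bcl2 gave 8.9, 17.1 and 23.9 against 2.7, 4.4 and 7.5 CPM (log2 1.74 ± 0.22), and its pro-apoptotic partner Bcl2l11, which encodes Bim, 92.2, 138 and 152 against 15.0, 41.5 and 65.9 CPM (log2 1.68 ± 0.20). The death receptor gene Fas was lower, at 2.8, 4.6 and 11.9 against 14.8, 19.2 and 22.5 CPM (log2 -1.86 ± 0.27, adjusted p = 0.00223). Of 18 survival and death genes tested 5 were higher and 2 lower.

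Some immune regulators and innate genes were higher and others lower. Il10, the regulatory cytokine, was low in both classes, with 3.7, 4.4 and 7.8 CPM in IgM plasmablasts against 0.65, 1.4 and 3.0 CPM (log2 1.98 ± 0.35, adjusted p = 0.00614), and Lag3, an inhibitory receptor of regulatory plasma cells, gave 4.7, 14.3 and 18.4 against 0.59, 1.7 and 6.1 CPM with overlapping sums (log2 2.22 ± 0.34, adjusted p = 0.0031). These were the 2 higher of 11 tested cytokine and regulatory genes (1 or 2 with a set left out), where 10.2% of all genes were higher. Of 19 TLR7 and NF-kB genes 7 were higher and 1 lower, with Rel (log2 1.195 ± 0.20), Relb (1.17 ± 0.16) and Nfkbie (1.02 ± 0.18) leading; 4 were higher without any 1 set, and Nfkbie did not pass without set 3 (adjusted p = 0.0551). Interferon-stimulated genes split, with 5 higher and 3 lower of 14 (2 to 4 higher and 3 lower with a set left out). Isg15 gave 34.5, 75.04 and 163 against 14.2, 20.0 and 74.0 CPM with overlap (log2 1.69 ± 0.15), whereas Bst2, which tethers virions, gave 129, 152 and 176.5 against 328, 359 and 387 CPM (log2 -1.25 ± 0.10) and Lgals3bp 5.8, 11.7 and 21.5 against 23.5, 28.8 and 32.7 CPM (log2 -1.44 ± 0.22). Il2rg, the shared chain of the IL-4 receptor, was higher (log2 0.98 ± 0.14). It was 1 of 2 higher genes of the IL-4 and STAT6 list, where 2 were lower of 16 tested. Of the 16, 12 had a negative difference (median -0.26). With a set left out 1 or 2 were higher and 1 or 2 lower.

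Respiratory chain genes were slightly but broadly lower, with 10 of 18 passing and none higher (median -0.26). Ndufa1, a subunit of complex I, gave 387, 449 and 502 against 596, 622 and 644 CPM (log2 -0.47 ± 0.10, adjusted p = 0.0139), Ndufs6 was lower by a log2 of -0.45 ± 0.07 and Uqcrq of complex III by -0.44 ± 0.09. The 10 fell to 1, 3 and 3 without set 1, 2 and 3, and Ndufa1 and Uqcrq did not pass with any set left out, while the list median stayed between -0.31 and -0.27. Glycolysis held 3 lower genes of 12, led by Tpi1 (log2 -0.57 ± 0.07), and the Myc target list 4 lower of 17, led by the spermidine synthase gene Srm (-0.58 ± 0.10; not passing without set 1). With a set left out, 1 or 2 genes of glycolysis and 0 to 2 of the Myc list were lower. No gene of 20 tested for replication and mitosis differed. Handling-response genes were mixed, with 3 higher and 5 lower of 19: Dusp1 was lower (log2 -1.41 ± 0.20) and Egr2 (1.75 ± 0.27) and Egr1 (1.04 ± 0.26) higher. With a set left out 1 to 3 were higher and 2 or 3 lower, and Egr1 did not pass without set 1 or when cells had no Mki67 or Top2a UMI (adjusted p up to 0.106). Stress genes Chac1 (0.82 ± 0.16) and Ddit4 (-0.87 ± 0.11) went in opposite directions, and Chac1 did not pass without the replicate block or when cells had no Mki67 or Top2a UMI (adjusted p up to 0.113).

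The most unequal genes outside the lists followed no single role. Slpi (ENSMUSG00000017002, chromosome 2, 164354070 to 164389095, minus strand, GRCm38), an inhibitor of leukocyte proteases, gave 373, 519 and 1747 CPM in IgM plasmablasts against 8351, 11670 and 12690 CPM, 17.1-fold lower (log2 -4.10 ± 0.30, adjusted p = 0.000114). Upk3a gave 0.57, 1.4 and 4.7 against 13.5, 19.4 and 31.9 CPM (log2 -3.46 ± 0.19), and the paired membrane channel genes Tmem176b (-3.10 ± 0.27) and Tmem176a (-2.96 ± 0.23) were lower together. Prg2, known from eosinophil granules, was lower at 18.7, 54.2 and 129 against 202, 421 and 580 CPM (log2 -2.91 ± 0.45), as were Gng3 (-2.90 ± 0.29), Nuggc (-2.30 ± 0.26) and the potassium channel gene Kcnn4 (-2.14 ± 0.08). On the higher side stood Pinlyp with 15.5, 19.1 and 26.4 against 0, 0.70 and 4.7 CPM (log2 4.43 ± 0.45), and the fatty acid receptor gene Cd36 with 59.8, 70.4 and 74.8 against 4.0, 8.4 and 17.8 CPM (log2 3.05 ± 0.18). Selenop, a selenium carrier, gave 56.6, 58.7 and 96.5 against 9.1, 11.7 and 14.9 CPM (log2 2.40 ± 0.11), and the peptidase gene Dpp4 20.6, 27.7 and 33.8 against 1.8, 5.2 and 10.3 CPM (log2 2.21 ± 0.19). The 68 genes of this comparison were selected for passing the test and for size, and 53 of them kept their direction and call under each alternative run.

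Splitting the switched cells by their most abundant constant gene showed where IgM stood among the classes. This is a description over 3 sets with both treatments summed, in CPM without further scaling. Slpi averaged 768 ± 278 CPM in IgM cells, 2864 ± 2366 in IgG3 cells (86 cells), 3044 ± 2532 in IgA cells (52 cells), 10038 ± 238 in IgG2b or IgG2c cells (796 cells) and 15696 ± 1747 in IgG1 cells (204 cells; SD over 3 sets). IgG3 and IgA overlapped each other, and 1 set of each lay within the IgM range. Txndc5 averaged 2534 CPM in IgM and 2497 CPM in IgA cells, against 629 CPM in IgG1, 611 CPM in IgG3 and 866 CPM in IgG2b or IgG2c cells. IgM and IgA thus held like levels of Txndc5, above every IgG set value. Ccr10 averaged 82.2 CPM in IgA cells, 8.3 to 11.2 CPM in the IgG classes and 2.4 CPM in IgM cells. Amigo2 (113 CPM in IgM against 13.5 to 32.6 CPM) and Ly6d (1855 CPM against 198 to 488 CPM) separated IgM from every other class.

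**Figure D3:**
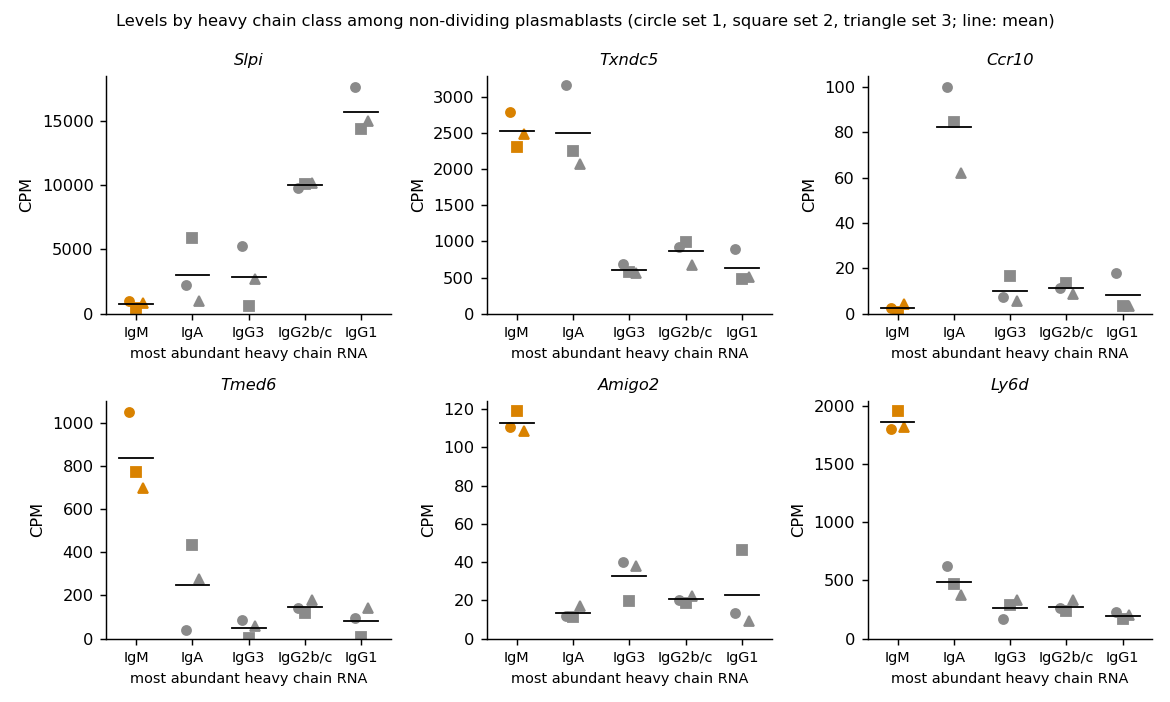
Level in CPM (y axis) of Slpi, Txndc5, Ccr10, Tmed6, Amigo2 and Ly6d by the most abundant heavy chain RNA (x axis), with 1 point per set and a line at the mean. Slpi climbs from 768 CPM in IgM to 15696 CPM in IgG1 cells, Txndc5 is high in IgM and IgA cells, Ccr10 in IgA cells, and Tmed6, Amigo2 and Ly6d in IgM cells.

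Surface proteins, read by 12 barcoded antibodies, followed several of these differences. Levels are the mean of log2(UMI + 1) per cell. The IgM antibody gave 5.65 on IgM plasmablasts and 2.39 on switched cells (mean of 6 sums, difference 3.25). Both classes were chosen by their share of Ighm RNA, so the IgM difference describes that choice. CD21, the product of Cr2, gave 6.14 against 4.07 (difference 2.07), CD138, the product of Sdc1 that marks plasma cells, 7.12 against 7.96 (-0.84), the activation and germinal center glycan GL7 3.78 against 3.13 (0.65) and CD11c 3.05 against 3.43 (-0.37). Each of these 5 differences had the same sign in 6 of 6 sums, with an exact two-sided sign-flip permutation p of 0.03125, the smallest 6 pairs can give, and 0.075 after adjustment over 12 antibodies. As a share of surface UMIs, IgM, CD21, CD138 and GL7 kept the sign in 6 of 6 sums, CD11c was lower in 5 of 6 (exact permutation p = 0.0625) and CD27 was higher in 6 of 6 (1.13% against 0.822%). The Sdc1 RNA was lower in IgM plasmablasts too (log2 -0.65). The IgD antibody gave 4.95 on IgM plasmablasts and 4.55 on switched cells, cells that have switched away from IgD. CD23 gave 5.06 on IgM plasmablasts and 5.07 on switched cells. CD95, the product of Fas, gave 4.26 on both (difference -0.001, higher in 2 of 6 sums), although Fas RNA was lower in IgM plasmablasts.

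Compared with IgD cells, IgM plasmablasts carried more CD138 (difference 3.97), IgM (1.35), CD11c (1.18), CD80 (1.11) and CD95 (0.25) and less IgD (-3.51), CD23 (-3.11), CD93 (-0.67) and CD27 (-0.55), each in 6 of 6 sums (exact permutation p = 0.03125; 0.0417 adjusted over 12 antibodies). IgD cells were themselves chosen by Ighd RNA and by low Edem1 and Mzb1 RNA. The IgD difference describes that choice, and the CD138 difference partly does. CD21 gave 6.14 against 5.68, higher in 4 of 6 sums (exact permutation p = 0.1875). Several of these calls turned with the scale, and IgD cells carried more surface UMIs (medians of 631.5 to 1280 a cell, against 400 to 638.5). As a share of surface UMIs, CD21 was higher on IgM plasmablasts in 6 of 6 sums (17.4% against 7.99%), as was GL7 (5.76% against 3.06%; exact permutation p = 0.03125, 0.0417 adjusted). On that scale CD93 (0.582% against 0.869%, higher in 1 of 6 sums, exact permutation p = 0.15625) and CD27 (1.13% against 1.28%, higher in 4 of 6 sums, exact permutation p = 0.53125) did not pass.

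**Figure D4:**
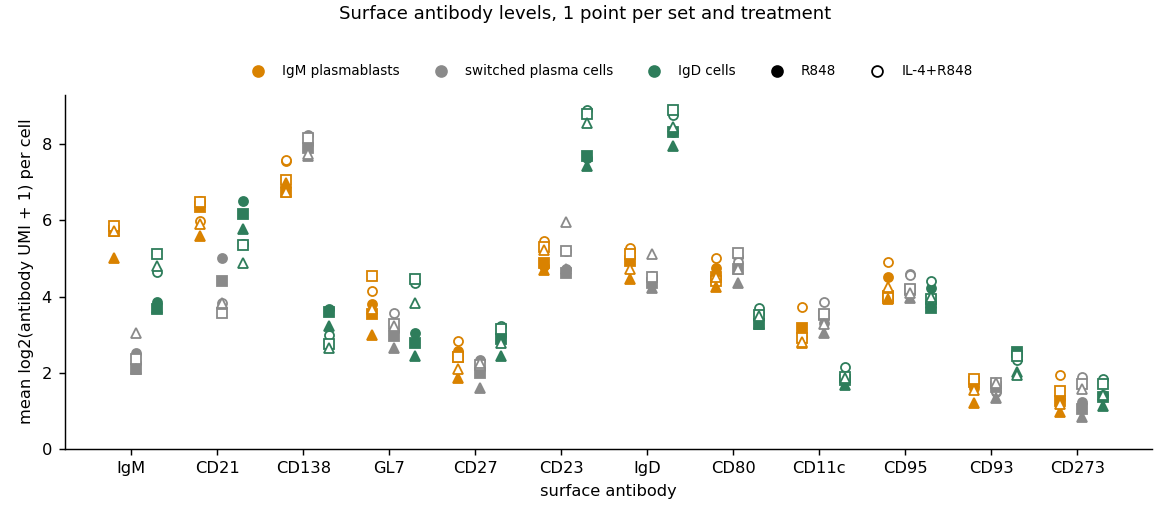
Mean log2(antibody UMI + 1) per cell (y axis) of 12 surface antibodies (x axis) on IgM plasmablasts, switched plasma cells and IgD cells, 1 point per set and treatment, filled for R848 and open for IL-4+R848. IgM and CD21 are higher and CD138 is lower on IgM plasmablasts than on switched cells in every sum, and CD23 and IgD stay far below the IgD cells.

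The variable genes of IgM plasmablasts were diverse, and 2 heavy and light pairs were each found in 2 or more cells of separate sets. A heavy variable gene was assigned when it gave at least 80% of at least 10 heavy variable UMIs. The most frequent was Ighv1-26 in 47 cells (6.90% of those assigned), then Ighv6-3 in 37, Ighv1-53 in 32 and Ighv10-1 in 28, each in all 6 sums. Ighv1-26 also led the switched cells, with 70 cells (6.27%). Lambda light chains were used by 6.73% ± 2.58 of members after R848 and 5.83% ± 2.27 after IL-4+R848 (n = 3; exact permutation p = 0.60). The largest groups with 1 heavy and light pair were Ighv1-53 with Igkv3-2 in 7 cells of set 1 after R848, and Ighv11-2 with Igkv14-126 in 6 cells of set 1 and 6 cells of set 3, both after R848. Ighv6-3 with Iglv1 was found in 2 cells of set 1 and 2 cells of set 2, also after R848. Cells of 1 set that share a pair may be 1 clone, and the junction sequences were not used here. Ighv11-2 with Igkv14-126 is known from B-1a cells that bind phosphatidylcholine. Ighv11-2 was found in 17 members (2.50%), of which 16 came from R848 and 1 from IL-4+R848, and in 7 IgD cells (0.217%). By set the members with Ighv11-2 numbered 8, 1 and 7 after R848 and 0, 1 and 0 after IL-4+R848. Igkv14-126 was found in 16 members and in 3 switched cells.

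The first 300 coding bases of both reference genes are shown because this pair was found in 6 cells in each of 2 sets. They are the C57BL/6 sequences of GRCm38 in GENCODE M21 and not reads of these mice, whose strain mixes 2 parental haplotypes. Ighv11-2 lies on chromosome 12 (114048241 to 114048704, minus strand) and Igkv14-126 on chromosome 6 (67896177 to 67896642, plus strand), each with 353 coding bases in 2 exons. Capitals mark the start codon.
Ighv11-2: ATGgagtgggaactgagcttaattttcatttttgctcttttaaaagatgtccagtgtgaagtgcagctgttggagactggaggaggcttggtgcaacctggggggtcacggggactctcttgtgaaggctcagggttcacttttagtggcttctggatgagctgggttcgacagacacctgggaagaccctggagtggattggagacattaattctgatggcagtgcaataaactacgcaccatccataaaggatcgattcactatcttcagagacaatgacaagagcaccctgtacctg
Igkv14-126: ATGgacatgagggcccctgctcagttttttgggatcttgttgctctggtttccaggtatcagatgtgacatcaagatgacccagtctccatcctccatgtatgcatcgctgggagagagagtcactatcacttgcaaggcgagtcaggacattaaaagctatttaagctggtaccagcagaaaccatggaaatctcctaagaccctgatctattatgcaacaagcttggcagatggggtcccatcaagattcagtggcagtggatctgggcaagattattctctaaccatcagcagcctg

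IL-4 changed little RNA within IgM plasmablasts that could be told from the spread between sets. Of 7210 genes none passed at an adjusted p under 0.05 in edgeR (0% called), with 380 genes at an unadjusted p under 0.05, and DESeq2 called 9 higher and 9 lower. The DESeq2 calls outside the immunoglobulin variable genes were Dnajb1, Dnajc7, Gnl3, Hspa8, Ifi30, Rflnb, Tmem123 and Vpreb3. Each of these had a positive log2 difference in edgeR, and all other DESeq2 calls were variable genes. Fits differed: with immunoglobulin genes left out, 13 genes were higher and 2 lower. Core plasmablast genes did not pass, with differences close to 0. Xbp1 gave 1783, 1667 and 1772 CPM after R848 and 2115, 1787 and 1566 CPM after IL-4+R848 in sets 1 to 3, with overlapping groups (log2 0.07 ± 0.16, adjusted p = 0.991). Jchain gave 19230, 17110 and 21040 CPM and 18940, 16780 and 22850 CPM (log2 0.03 ± 0.16), and Hsp90b1, the ER chaperone GRP94, 4973 ± 798 and 5079 ± 479 CPM (log2 0.03 ± 0.17). Cd79a (log2 0.04 ± 0.14) and the ER to Golgi gene Tmed10 (-0.03 ± 0.14) also overlapped.

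The IL-4 and STAT6 list had 10 tested members and a median log2 difference of 0.58 against 0.0015 for all genes, and none passed. Il2rg gave 120, 139 and 111 CPM after R848 and 108, 121 and 98.8 CPM after IL-4+R848 (log2 -0.18 ± 0.13). The MHC class II list had a median of 0.24 over 11 genes with none passing, among them the invariant chain gene Cd74 at 8925 ± 605 and 9417 ± 232 CPM (log2 0.08 ± 0.13). Other leading members of lists also missed the threshold in edgeR: Ly6c2 (log2 0.56 ± 0.40), Ly6a (0.14 ± 0.15), Ltb (0.56 ± 0.26), Ifi27l2a (0.20 ± 0.18), Fos (-0.07 ± 0.31) and Plac8 (-0.53 ± 0.24), with adjusted p from 0.968 to 1. Plac8 was lower after IL-4 in 3 of 3 sets.

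The genes called once immunoglobulin genes were left out moved the same way in 3 of 3 sets. The R848 and IL-4+R848 values did not overlap for Tmem123, Ifi30, Ciita, Hspa8, Rflnb and Apoe, but overlapped for Hspb1. These genes were chosen after their values were seen, and the share of all genes that did the same is not given. Direction and overlap are therefore descriptions here. Tmem123, a transmembrane sialomucin, gave 219, 231 and 225 CPM after R848 and 336, 395 and 376 CPM after IL-4+R848 (log2 0.71 ± 0.13, adjusted p = 0.405 with all genes and 0.0019 without immunoglobulin genes). Ifi30, a lysosomal thiol reductase of antigen processing, gave 71.2, 83.6 and 86.7 CPM and then 164, 140 and 129 CPM (log2 0.85 ± 0.13, adjusted p 0.269 and 0.00245). Ciita, the master regulator of MHC class II genes, gave 8.1, 7.4 and 3.0 CPM and then 31.0, 13.5 and 14.5 CPM (log2 1.72 ± 0.44, adjusted p 0.73 and 0.0462). Hspa8, the constitutive HSP70 chaperone, gave 286, 300.5 and 311 CPM and then 485, 540 and 467.5 CPM (log2 0.73 ± 0.14, adjusted p 0.405 and 0.00125), and its co-chaperone genes Dnajb1 (log2 0.89 ± 0.21) and Dnajc7 (0.56 ± 0.13) and the small heat shock gene Hspb1 (3.28 ± 0.98) were called with it. Hspb1 rose most in sets 2 and 3, with 4.4, 84.4 and 41.0 CPM after IL-4+R848 against 2.8, 6.9 and 2.5 CPM. Rflnb gave 0.93, 1.4 and 1.5 CPM and then 8.2, 14.6 and 21.7 CPM (log2 3.42 ± 0.49, adjusted p 0.226 and 0.0019). Vpreb3 (0.76 ± 0.16), Gnl3 (0.93 ± 0.22), Ifitm3 (1.28 ± 0.24), Snx29 (1.47 ± 0.26) and Sypl (0.72 ± 0.12) completed the higher genes. The 2 lower genes were Apoe, with 497, 961 and 556 CPM and then 385, 288 and 382 CPM (log2 -0.93 ± 0.28), and the T cell gene Cd3g, with 9.6, 13.4 and 8.4 CPM and then 1.9, 0 and 0 CPM (log2 -3.46 ± 0.64). The part of T cell RNA in the Cd3g difference was not tested. Before TMM scaling, summed T cell markers were 10.6, 17.5 and 8.3 CPM after R848 and 2.5, 1.0 and 1.1 CPM after IL-4+R848. That sum includes Cd3g itself, and 5 of its 6 genes were at 0 in set 3 after R848. It is therefore no separate measure of T cell RNA.

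On the surface, CD23 separated the treatments on both scales used. It gave 4.81, 4.87 and 4.70 on IgM plasmablasts after R848 and 5.47, 5.31 and 5.22 after IL-4+R848 in sets 1 to 3 (4.80 ± 0.09 against 5.33 ± 0.13, n = 3; exact permutation p = 0.10, the smallest possible, and 0.80 over 12 antibodies). The groups did not overlap. As a share of a cell group's surface antibody UMIs, 3 antibodies separated the treatments without overlap: CD23 (7.31% ± 0.673 after R848 and 13.5% ± 2.29 after IL-4+R848), GL7 (4.04% ± 0.547 and 7.49% ± 2.40) and CD21 (20.3% ± 2.27 and 14.6% ± 2.78), each with an exact permutation p of 0.10 and 0.40 over 12 antibodies (SD, n = 3). CD23 was also higher after IL-4 on IgD cells (7.64, 7.68 and 7.43, then 8.90, 8.81 and 8.56) and on switched cells (4.74, 4.61 and 4.73, then 5.20, 5.20 and 5.97). The CD23 gene Fcer2a gave 16.4, 8.3 and 2.0 CPM in IgM plasmablasts and then 11.4, 34.4 and 21.7 CPM, with overlap (log2 1.09 ± 0.63, adjusted p = 0.973 in edgeR). On the log2 scale GL7 gave 3.44 ± 0.42 and 4.12 ± 0.44 (exact permutation p = 0.20), higher in 3 of 3 sets. CD138 gave 7.10 ± 0.42 and 7.13 ± 0.42 (exact permutation p = 0.70).

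The IL-4 effect in IgM plasmablasts was smaller than in IgD cells for a set of genes, by a test of the difference itself. In a joint fit of both populations, 21 of 10063 genes differed in their response (edgeR, adjusted p under 0.05, 0.209%), 14 with a lower value in IgM plasmablasts (0.139%) and 7 with a higher one (0.0696%). Of these 16 were not immunoglobulin genes. Eaf2, a transcription elongation factor, gave 7.3, 9.5 and 5.4 CPM after R848 in IgD cells and 33.6, 40.5 and 41.7 CPM after IL-4+R848, while IgM plasmablasts gave 801, 712 and 691 CPM and then 657.5, 674 and 632 CPM (difference of log2 effects -2.54 ± 0.25, adjusted p = 0.00112). IgD cells stayed far below the level that IgM plasmablasts had with or without IL-4. Tmem123 gave 141, 135 and 155 CPM and then 618, 719 and 698 CPM in IgD cells, against 291 ± 6.2 CPM and then 470.4 ± 35.5 CPM (SD, n = 3) in IgM plasmablasts on the scale of this fit (difference -1.54 ± 0.16, adjusted p = 0.00112). In this fit its rise in IgM plasmablasts passed as well (log2 0.69, adjusted p = 0.0378). St7 gave 4.6 ± 0.91 CPM and then 74.9 ± 16.4 CPM in IgD cells and 10.9 ± 2.0 and 17.6 ± 5.9 CPM in IgM plasmablasts (difference -3.37 ± 0.47, adjusted p = 0.0115). The ubiquitin ligase subunit gene Klhdc2 (-2.38 ± 0.26), Prelid2 (-1.86 ± 0.22), Samsn1, an adaptor that dampens B cell activation (-1.63 ± 0.25), Rab35 (-1.46 ± 0.21), Syngr2 (-0.84 ± 0.14) and the sialyltransferase gene St6gal1 (-0.86 ± 0.15) showed the same pattern. Myof, raised by IL-4 in IgD cells from 9.0 ± 1.3 to 22.2 ± 1.1 CPM, stood at 29.96 ± 4.5 and 29.9 ± 3.1 CPM in IgM plasmablasts (difference -1.31 ± 0.20).

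In the other direction, IL-4 lowered genes in IgD cells that IgM plasmablasts kept. Sdc1 gave 7.9 ± 1.5 and then 1.4 ± 0.28 CPM in IgD cells and 160 ± 23.3 and 126 ± 25.3 CPM in IgM plasmablasts (difference 2.17 ± 0.30, adjusted p = 0.0115). Cd36 gave 11.8 ± 1.6 and 4.4 ± 0.63 CPM against 103 ± 3.9 and 95.1 ± 9.9 CPM (difference 1.30 ± 0.18, adjusted p = 0.0115). Rgs10, a brake on G protein signalling (1.41 ± 0.23), the sialyltransferase gene St8sia6 (1.42 ± 0.21), Oosp1 (2.53 ± 0.37) and Spty2d1 (0.83 ± 0.13) completed the group. Jchain in IgD cells was 23.0, 81.2 and 8.0 CPM after R848 and 49.1, 55.2 and 10.8 CPM after IL-4+R848 in the same fit, and the part of plasmablast RNA in these levels was not tested. The call of Eaf2 alone held under each alternative run; each of the other 15 genes lost it in at least 1 fit with a set left out, with an unchanged direction.

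**Figure D5:**
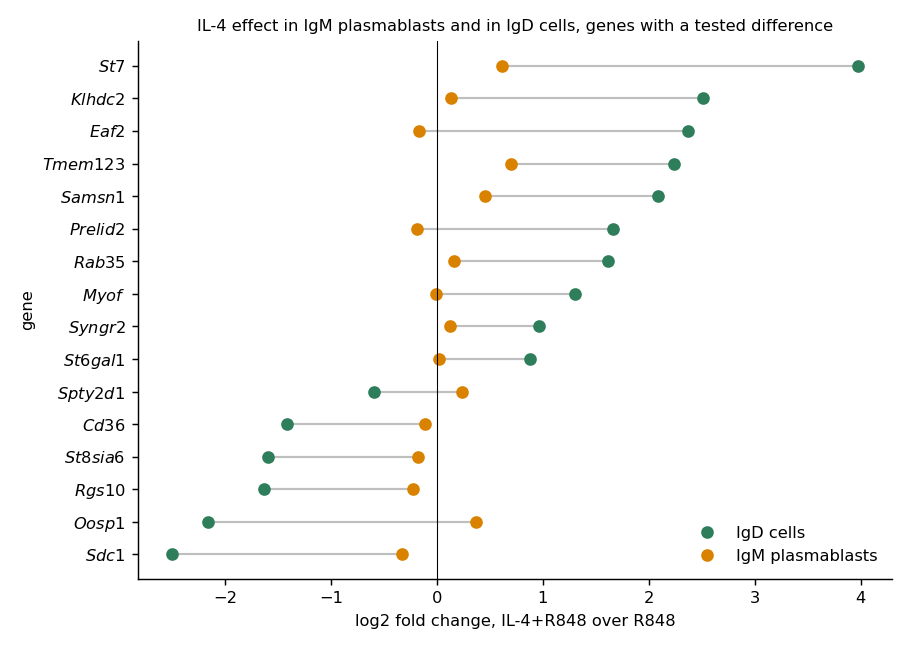
Log2 fold change of IL-4+R848 over R848 (x axis) in IgD cells and IgM plasmablasts for the 16 genes outside immunoglobulin whose effects differed (y axis), from the joint fit over 3 sets. Green points spread from -2.50 (Sdc1) to 3.98 (St7), while the orange points of IgM plasmablasts lie between -0.33 (Sdc1) and 0.69 (Tmem123).

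Promoters of these genes were searched for the STAT6 motif (TTC, any 4 bases, then GAA), which reads the same on both strands, in RefSeq windows of GRCm38.p6 from 250 bases before to 50 after a start. Windows were found for 15 of the 16 genes. The motif was present for 2 of the 15 genes, St7 and Cd36, and neither Eaf2 nor Tmem123 held it. It was present for 6.30% of the 7846 tested genes that had a window and 8.01% of all genes with a window. A match describes the letters only. In St7, the gene with the greatest contrast between IgD cells and IgM plasmablasts, the motif began 60 bases before 1 of 3 annotated starts. The 250 bases before that start (chr6:17748920-17749169, plus strand) are shown with the motif in capitals.
St7: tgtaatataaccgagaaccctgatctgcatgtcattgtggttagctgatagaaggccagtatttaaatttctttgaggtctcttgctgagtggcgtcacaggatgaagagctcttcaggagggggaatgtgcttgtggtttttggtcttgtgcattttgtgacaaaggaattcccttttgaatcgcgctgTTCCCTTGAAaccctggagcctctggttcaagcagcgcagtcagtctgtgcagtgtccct

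Against switched plasma cells no difference in the IL-4 effect was found. None of 7897 genes passed (edgeR, 0%), with 303 at an unadjusted p under 0.05 and 7 called by DESeq2. Tmem123 moved alike in both classes on the scale of that fit, with a log2 effect of 0.71 in IgM plasmablasts and 0.49 in switched cells (difference 0.22 ± 0.15, adjusted p = 1), and the fit does not show that the classes respond equally.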

How the data were processed

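Per the labels' protocols, spleen B cells were enriched by negative selection, stained with hashing and surface antibodies and captured with 10x Genomics 5′ chemistry. Per the submitters' processing notes, Cell Ranger 6.0.1, Seurat 4.1.3 and the mm10 build were used; filters before deposit are not given in the sources used here. The deposited matrices hold raw UMI counts of 32285 genes, 12 surface antibodies and 2 hashtags. Cells needed at least 500 genes, under 10% mitochondrial UMIs, and 1 hashtag of at least 64 UMIs and at least 4 times the other plus 1. Members, gene lists and comparisons were chosen with earlier results of these data known. Counts were summed by set, treatment and class and tested with edgeR 4.0.16 (TMM, low-count filter, quasi-likelihood test, Benjamini-Hochberg adjustment) in R 4.3.3; IgM against switched cells was blocked by set and treatment, the IL-4 effect was not. DESeq2 1.42.0 and other alternatives were also run. Same-numbered sets share a library by design, and deviations of their sums from the group means correlated at -0.0741, -0.0913 and -0.139 over 1694 genes. Scripts were tested on simulated data. Shares and antibodies were compared with exact two-sided permutation tests; the sign-flip test of antibodies between classes was chosen after seeing the data. Named were list members past the threshold in the same direction in all 3 sets, up to 3 a list by size, or the highest in CPM where none passed, and up to 8 rises and 8 falls outside the lists of at least 20 CPM; genes of the IL-4 fit without immunoglobulin, and the values of Fcer2a and of Sdc1 between IgM and switched cells, were chosen after their values were seen.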

Additional observations from a re-analysis of the deposited data

Results flagged for a closer look

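Genes whose IL-4 effect differed between IgM plasmablasts and IgD cells in the joint edgeR fit are listed with the difference of the log2 effects, IgM plasmablasts minus IgD cells. Lower values were found for St7 (-3.37), Eaf2 (-2.54), Klhdc2 (-2.38), Prelid2 (-1.86), Samsn1 (-1.63), Tmem123 (-1.54), Rab35 (-1.46), Myof (-1.31), St6gal1 (-0.86) and Syngr2 (-0.84). Higher values were found for Spty2d1 (0.83), Cd36 (1.30), Rgs10 (1.41), St8sia6 (1.42), Sdc1 (2.17) and Oosp1 (2.53).

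The other flagged differences were variable genes, Ighv1-72 (-10.87), Igkv1-99 (-9.24), Igkv3-10 (-8.01), Ighv1-61 (-7.07) and Igkv4-50 (10.21). These fitted values rest on sums at or near 0 and are not folds. Ighv1-72 gave 372, 1153 and 1422 CPM in IgM plasmablasts after R848 and 0, 2.7 and 0 CPM after IL-4+R848, while IgD cells gave 11.4 to 19.6 CPM. Igkv4-50 gave 0.80, 1.2 and 0 CPM and then 108, 1919 and 325 CPM. The sums after IL-4+R848 held 53 to 94 cells.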

How the results depend on the processing

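The number of genes called for the IL-4 effect in IgM plasmablasts (0) was 18 with DESeq2, 5 without a filter on low counts, 15 without immunoglobulin genes, 3 with the replicate block on set, 1 with Edem1 of at least 3 and Mzb1 of at least 10, 3 with those limits per 10000 UMIs, 3 with no Mki67 or Top2a UMI, and 5 to 9 with 1 set left out. For IgM against switched cells (1631) it was 669 to 1011 with 1 set left out, 981 with no Mki67 or Top2a UMI, 1254 with Edem1 of at least 8 and Mzb1 of at least 40, 1360 with DESeq2, 1508 without a filter and 1601 with no replicate block; it rose to 2116 without immunoglobulin genes, 2025 with Edem1 of at least 3 and Mzb1 of at least 10 and 2259 with those limits per 10000 UMIs. For the difference from switched cells (0) it was 7 with DESeq2, 0 with the replicate block and 0 to 2 with 1 set left out. For the difference from IgD cells (21) it was 123 with DESeq2, 63 without a filter, 85 without immunoglobulin genes, 33 with limits per 10000 UMIs, 30 with the replicate block and 8 to 20 with 1 set left out; 8 was without set 3. For the IL-4 effect in IgM plasmablasts, the genes called with 1 set left out or with the replicate block were all immunoglobulin variable genes. The causes of these moves were not tested.

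The lower share of IgM plasmablasts among all cells kept its direction under each alternative run. The IgM share of non-dividing plasmablasts (difference 2.88 percentage points) went from -3.77 (without set 3) and -0.16 (without set 2) to 12.6 (without set 1). The dividing share (1.68) was -1.58 when cells with any Mki67 or Top2a UMI counted as dividing, and 0.28 to 2.72 with 1 set left out. The lambda share (-0.91) was -2.53 to 0.62 with 1 set left out. No antibody passed for the IL-4 effect under any alternative run.

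Small IL-4 differences in IgM plasmablasts changed sign without reaching the threshold. With 1 set left out, the log2 difference went from -0.0334 to 0.177 for Xbp1, -0.0258 to 0.0588 for Jchain, -0.0591 to 0.0999 for Cd79a, -0.000926 to 0.0941 for Hsp90b1, -0.053 to 0.0258 for Tmed10, -0.0964 to 1.21 for Ly6c2 and -0.32 to 0.0875 for Fos. It was -0.00635 for Cd79a and -1.02e-05 for Hsp90b1 with Edem1 of at least 3 and Mzb1 of at least 10, 0.00553 for Tmed10 and 0.0095 for Fos with Edem1 of at least 8 and Mzb1 of at least 40, and 0.00438 for Tmed10 with no Mki67 or Top2a UMI. Of 68 genes selected between IgM and switched cells, 14 lost their call with a set left out. The sums after IL-4+R848 held 53 to 94 cells, which limits the precision of the IL-4 comparison.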
